A study of Mus musculus with 12 samples.

Results

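A set of 10 digestive enzyme genes that textbooks place in the pancreas were followed through RNA sequencing of the mouse proximal ileal epithelium. The 10 genes, of 46078 in the count files, were chosen from their measured levels in these same libraries, so their levels by dose are given as a description and carry no test. Of these, 7 (Pnlip, Ctrb1, Cela2a, Cela3b, Cpa1, Cel and Ctrl) were set apart as genes of the pancreatic acinar cell, and 3 (Pnliprp2, Clps and Klk1) as genes that the ileum also makes itself. Symbols were matched to Ensembl gene identifiers through the GENCODE M21 annotation.

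The 12 libraries came from male C57BL/6 mice that were gavaged 7 times at intervals of 4 days, and the labels give a start age of 28 days and an end age of 56 days. Control animals received sesame oil (vehicle), and the others received 3, 10 or 30 µg/kg TCDD, a dioxin, in the same oil, with 3 animals in each of the 4 groups. TCDD is a long-lived ligand of the aryl hydrocarbon receptor (AhR). The tissue was a scraping of the epithelium, so it held every cell type of the mucosal surface, and the labels do not say how much lay beneath it. Gene counts were between 11695887 and 22180274 per library, and 3 counts in a single library equaled 0.135 to 0.257 CPM on plain library totals. The floor used in ratios for a gene without a signal was lower, at 3 counts over a whole group. CPM is the count scaled to library size, here with TMM factors (a trimmed mean that allows for differences in RNA composition), and errors are SD with n = 3.

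Pancreatic acinar cells synthesize digestive enzymes, store them in granules and release them into the duct that empties into the duodenum. Proteases are made as inactive zymogens that are cleaved in the intestinal lumen, while lipases act with bile salts and a small cofactor protein, colipase. The ileum lies downstream of that duct and has secretory cells of its own. Paneth cells at the crypt base release lysozyme and alpha-defensins, and goblet cells release mucin and trefoil peptides. Acinar enzyme genes are classically driven by the PTF1 complex, which binds an E-box together with a TC-box, whereas AhR with its partner ARNT binds a core of GCGTG.

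The promoters of 3 acinar genes and of 1 ileal gene are shown because they let these letters be read beside the genes whose levels are compared below. Each run is the 250 bases before the RefSeq gene start on the gene's own strand, 5′ to 3′ (GRCm38.p6). The starts of these 4 genes coincide in RefSeq and GENCODE. Capitals mark the E-box letters CACCTG and the TC-box letters TTTCCC on either strand, the reverse reading as CAGGTG and GGGAAA. The regions are chr8:111691011-111691260 on the minus strand for Ctrb1, chr6:30638968-30639217 on the plus strand for Cpa1, chr2:28563404-28563653 on the minus strand for Cel, and chr7:44225110-44225359 on the plus strand for Klk1.
Ctrb1: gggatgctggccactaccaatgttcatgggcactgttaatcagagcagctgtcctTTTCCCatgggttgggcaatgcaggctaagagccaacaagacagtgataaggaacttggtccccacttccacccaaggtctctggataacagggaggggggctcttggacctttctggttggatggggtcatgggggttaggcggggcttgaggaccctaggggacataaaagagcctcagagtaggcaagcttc
Cpa1: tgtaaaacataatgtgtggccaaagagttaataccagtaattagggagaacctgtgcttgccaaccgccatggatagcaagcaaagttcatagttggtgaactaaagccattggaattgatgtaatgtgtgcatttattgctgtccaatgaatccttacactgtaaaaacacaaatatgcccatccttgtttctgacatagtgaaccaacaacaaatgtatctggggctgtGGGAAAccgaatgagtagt
Cel: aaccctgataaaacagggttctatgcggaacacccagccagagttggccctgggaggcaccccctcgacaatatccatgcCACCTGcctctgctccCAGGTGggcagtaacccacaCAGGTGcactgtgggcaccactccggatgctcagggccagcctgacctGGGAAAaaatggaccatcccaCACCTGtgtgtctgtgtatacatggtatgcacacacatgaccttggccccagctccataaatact
Klk1: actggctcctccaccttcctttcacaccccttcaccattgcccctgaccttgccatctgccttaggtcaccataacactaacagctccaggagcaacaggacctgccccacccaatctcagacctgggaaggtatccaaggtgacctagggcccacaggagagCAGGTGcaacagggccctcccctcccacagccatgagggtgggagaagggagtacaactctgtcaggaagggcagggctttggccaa

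Cel carried 4 E-box matches and 1 TC-box match in its window, the densest of the 4 runs shown. Ctrb1 and Cpa1 each had a single TC-box match, 195 to 190 and 19 to 14 bases before the start, and no E-box. Klk1 had a single E-box match, 87 to 82 bases before the start. RefSeq promoters were found for 9 of the 10 genes, all but Clps. E-box letters were present in 4 of the 7 acinar promoters and in both ileal promoters, against 17.2% of 32851 mouse promoters of the same length. TC-box letters were present in 4 of the 7 acinar promoters and 0 of the 2 ileal ones, against 21.95% of all promoters. Both motifs were present in 2 acinar promoters, Cel and Cela2a, against 3.61% of all. The TATAAA letters were found in 1 promoter, that of Pnlip, against 12.4% of all. GCGTG or its reverse CACGC was found in 0 of the 9 windows, against 28.2% of all promoters. The start of Pnlip lies 17867 bases apart in the RefSeq and GENCODE annotations and that of Cela2a 155 bases apart, so their windows may not be the promoter in use here.

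Of the acinar genes, 6 were present at low level in every vehicle library and were lower in every one of the 9 dosed libraries. They were the lipases Pnlip and Cel, the proteases Ctrb1, Cela2a and Cela3b, and the carboxypeptidase Cpa1. Summed over these 6, the vehicle group held 378 counts, the 3 µg/kg group 3, the 10 µg/kg group 82 and the 30 µg/kg group 36. The order of the groups was therefore vehicle, 10, 30 and 3 µg/kg, the lowest dose had the lowest level, and no group overlapped the next in the summed level. With Ctrl included, the 7 acinar genes summed to 7.10 ± 0.631 CPM in vehicle, and to 0.591 ± 0.0579, 2.60 ± 0.187 and 1.53 ± 0.781 CPM at 3, 10 and 30 µg/kg. The pattern of the lowest vehicle library lying above all 9 dosed libraries held for 6 of the 10 genes and for 274 of the 28360 genes with any count, or 0.966%. Because the 10 genes were picked on these values, that count supports nothing further. In scrapings, fewer acinar cells in a sample and less enzyme RNA per cell cannot be told apart.

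**Figure D1:**
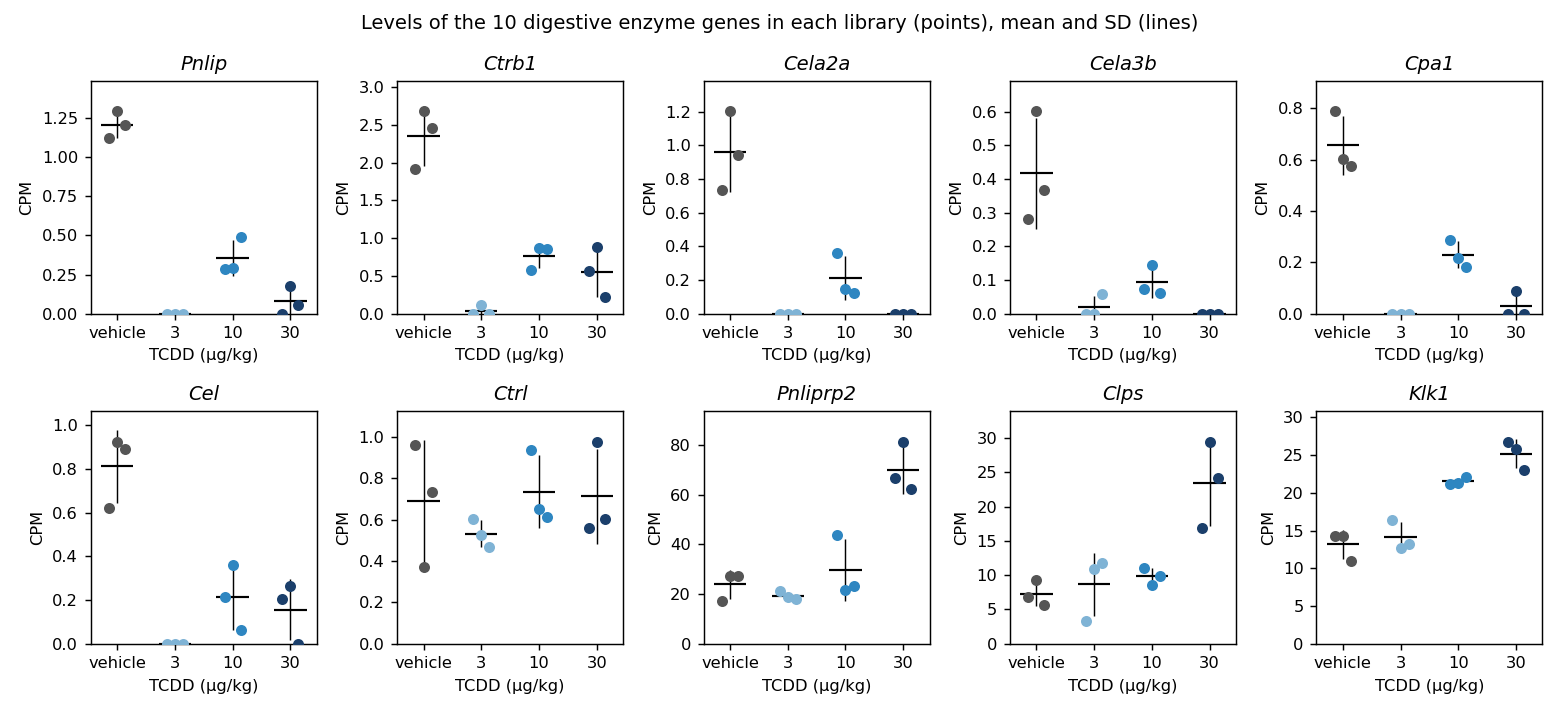
Each panel shows 1 gene, with TCDD dose on the x axis and CPM on a y axis that starts at 0. Points are the 12 libraries, horizontal lines the group means and vertical lines the SD (n = 3). The 6 acinar genes other than Ctrl sit highest in vehicle, Ctrl overlaps between all groups, and Pnliprp2, Clps and Klk1 sit highest at 30 µg/kg.

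Pnlip encodes pancreatic triglyceride lipase, which splits dietary triglyceride (chromosome 19, 58652498 to 58681788, plus strand, GRCm38). It had 20, 28 and 23 counts in the vehicle libraries and 0, 0 and 0 at 3 µg/kg. It had 4, 4 and 8 counts at 10 µg/kg, and 0, 2 and 1 at 30 µg/kg. The vehicle libraries were tight, at 1.21 ± 0.0839 CPM, and stood clear of every dosed library. Against a floor of 3 counts over the group, the vehicle level was at least 19.2-fold higher than at 3 µg/kg. It was 3.40-fold that at 10 µg/kg. At 30 µg/kg, where the group held 3 counts, the ratio of pooled counts was 19.9 with a 95% counting interval of 6.54 to 98.8.

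Cel encodes carboxyl ester lipase, the bile salt-stimulated lipase that also splits cholesteryl esters (chromosome 2, 28555795 to 28563403, minus strand). Its counts were 11, 20 and 17 in vehicle and 0 in all 3 libraries at 3 µg/kg. They were 3, 5 and 1 at 10 µg/kg and 4, 3 and 0 at 30 µg/kg. Vehicle was therefore at least 13.0-fold higher than the 3 µg/kg group, 3.81-fold the level at 10 µg/kg and 5.18-fold that at 30 µg/kg. On so few counts 1 library moved these ratios: the log2 ratio to vehicle went from -1.93 to -2.55 without the second library at 10 µg/kg, and from -2.37 to -2.99 without the second at 30 µg/kg. The 10 and 30 µg/kg libraries overlapped each other. The gene is crossed by an antisense transcript, Gm13381, which held 1 count in all. Whether the authors counted by strand is not given in the sources used here. Ambiguous reads were left out of the counts, so that 1 count cannot show whether Cel lost reads.

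Ctrb1 encodes chymotrypsinogen B and gave the most counts of the acinar genes (chromosome 8, 111686519 to 111691010, minus strand). Vehicle libraries had 34, 58 and 47 counts, and the 3 µg/kg libraries 0, 2 and 0. The 10 µg/kg libraries had 8, 12 and 14, and the 30 µg/kg libraries 11, 10 and 4. In CPM these were 2.35 ± 0.395, 0.0389 ± 0.0674, 0.767 ± 0.166 and 0.556 ± 0.334, so the means at 10 and 30 µg/kg differed by less than their spread. Vehicle was 3.07-fold the level at 10 µg/kg and 4.24-fold that at 30 µg/kg. On the 2 counts at 3 µg/kg the ratio of pooled counts was 56.4, with a counting interval of 15.3 to 471.

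Cela2a and Cela3b encode chymotrypsin-like elastases that cleave after small or aliphatic residues. Cela2a (chromosome 4, 141814962 to 141826160, minus strand) had 13, 26 and 18 counts in vehicle and 5, 2 and 2 at 10 µg/kg. It had 0 counts in all 6 libraries at 3 and 30 µg/kg, so that vehicle was at least 15.4-fold and 16.0-fold higher. Cela3b (chromosome 4, 137420999 to 137430540, minus strand) had 5, 13 and 7 counts in vehicle and 1, 2 and 1 at 10 µg/kg. It had 0, 0 and 1 counts at 3 µg/kg and 0 counts at 30 µg/kg, where vehicle was at least 7.01-fold higher. Both elastases thus lacked a count at 30 µg/kg, where Ctrb1 still had 25. Of the 50-base windows in the Cela2a transcript, 25.56% also occur in the overlapping gene models Casp9 or Ctrc, and 33.2% of those of Cela3b occur in Cela3a. Reads from such windows could have been set aside or split, so these levels are uncertain.

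Cpa1 encodes carboxypeptidase A1, which removes C-terminal residues from peptides (chromosome 6, 30639218 to 30645363, plus strand). Its counts were 14, 13 and 11 in vehicle, 0 in all 3 libraries of the 3 µg/kg group, 4, 3 and 3 in the 10 µg/kg group, and 0, 1 and 0 in the 30 µg/kg group. No dosed library reached the lowest vehicle library. The vehicle level was at least 10.3-fold higher than in the 3 µg/kg group and 2.86-fold the level at 10 µg/kg. On the 1 count at 30 µg/kg the ratio of counts pooled over the group was 32.0, with a counting interval of 5.40 to 1295.

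The shares of Ctrb1 and Pnlip among these 6 genes had overlapping intervals in the vehicle and 10 µg/kg groups. Ctrb1 made up 36.8% of their 378 counts in vehicle (exact binomial 95% interval 31.9 to 41.85%) and 41.5% of 82 at 10 µg/kg (30.7 to 52.9%). Pnlip made up 18.8% (14.97 to 23.1%) and 19.5% (11.6 to 29.7%) in the same groups. In the 30 µg/kg group, Ctrb1 made up 25 of 36 counts, or 69.4% (51.9 to 83.65%), an interval that lies above the one in vehicle. Cela2a, at 15.1% of the vehicle counts (11.6 to 19.1%), had 0 of 36 there, which allows a share of up to 9.74%. The 3 counts at 3 µg/kg were 2 of Ctrb1 and 1 of Cela3b and give no usable share. These intervals cover counting error only, since reads without molecular identifiers are not independent molecules, and the libraries within a group were pooled for them.

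**Figure D2:**
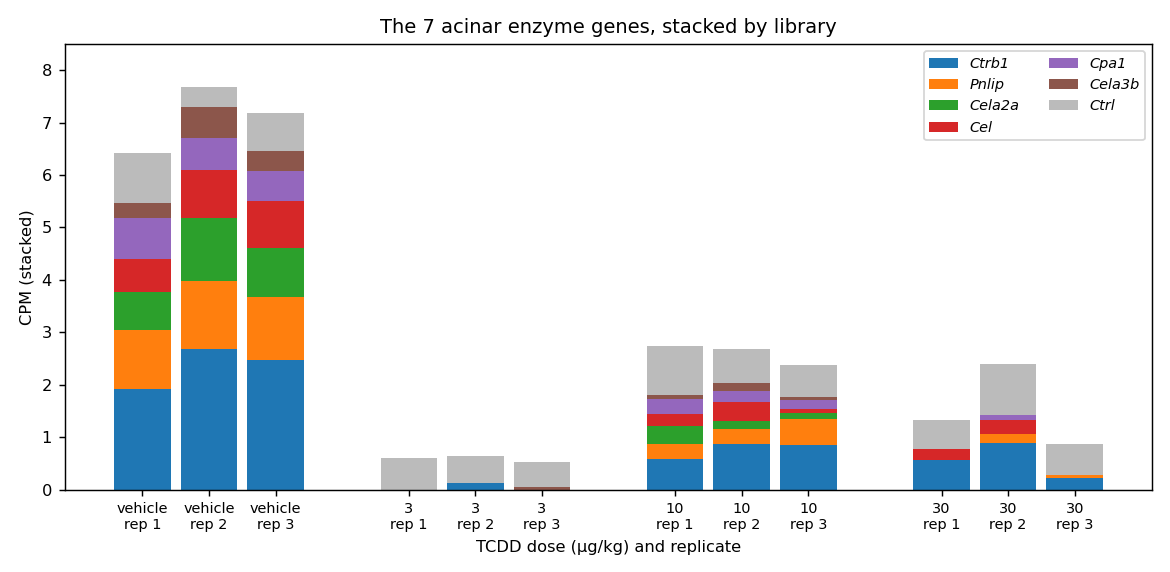
Bars are the 12 libraries, grouped by TCDD dose, and stacked segments give the CPM of each of the 7 acinar genes on a y axis that starts at 0. The colored segments, 6 genes, are tall in the 3 vehicle libraries and nearly absent at 3 µg/kg, while the gray Ctrl segment is present in all 12.

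Per kilobase of exon, Ctrb1 was the most abundant acinar gene in vehicle at 2.68 CPM per kb. Ctrl followed at 0.595, then Cela2a at 0.557 and Pnlip at 0.551, and the last 3 differed by less than their spread. Cel was at 0.386, Cpa1 at 0.375 and Cela3b at 0.250 CPM per kb. The ileal genes were far above all of them, at 15.2 for Pnliprp2, 12.2 for Klk1 and 12.0 CPM per kb for Clps in vehicle.

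Ctrl, which encodes a chymotrypsin-like protease, did not follow the other 6 acinar genes. Its counts were 17, 8 and 14 in vehicle, 8, 9 and 8 in the 3 µg/kg group, 13, 9 and 10 in the 10 µg/kg group, and 11, 11 and 11 in the 30 µg/kg group. All 4 groups overlapped, with means of 0.687 ± 0.297, 0.532 ± 0.0673, 0.733 ± 0.176 and 0.713 ± 0.229 CPM. At 3 µg/kg Ctrl held 25 counts beside 3 for the other 6 acinar genes together. Over the 12 libraries its log2 CPM had a Pearson correlation of 0.29 with the summed level of those 6, given as a description of libraries that share depth and group. Ctrl lies at chromosome 8, 105932003 to 105933862, on the minus strand, 225 bases from Pskh1 on the opposite strand, which held 2405 counts, and 1873 bases from Psmb10, which held 23471. Whether reads from outside Ctrl entered its count was not tested. Without Ctrl, the summed log2 ratio to vehicle went from -1.45 to -1.78 at 10 µg/kg and from -2.21 to -2.97 at 30 µg/kg.

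A list of 31 other genes secreted by acinar cells was read in the same libraries, and 12 of them had 0 counts throughout. Another 7 had fewer than 20 counts in all, and 12 had 20 or more. Only 4 of the 31 passed the filter on low counts, and edgeR called 0 of them at any dose against vehicle (adjusted p under 0.05 and at least 1.5-fold). At an unadjusted p under 0.05 there were 0, 1 and 2 genes at 3, 10 and 30 µg/kg, and DESeq2 also called 0. The share of all 15823 tested genes that were called was 0.228%, 0.613% and 3.97% at 3, 10 and 30 µg/kg. The 3 doses shared the same vehicle libraries.

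Of the 31 genes, 19 of them with a count, 4 had their lowest vehicle library above all 9 dosed libraries, a pattern held by 0.966% of all genes with a count. They are named after their values were seen. Prss2, a trypsinogen, had 12, 14 and 11 counts in vehicle, 1, 2 and 1 at 10 µg/kg, and 0 in all libraries at 3 and 30 µg/kg. Cpb1, carboxypeptidase B1, had 11, 10 and 24 counts in vehicle, 0, 0 and 1 in the 3 µg/kg group, 4, 3 and 1 in the 10 µg/kg group, and 0 in the 30 µg/kg group. The trypsin-like gene 2210010C04Rik had 8, 6 and 15 counts in vehicle and at most 3 in any dosed library. Try5 had 1, 2 and 5 counts in vehicle and 0 elsewhere, with 53.9% of its windows present in related trypsin genes. When genes were not filtered on low counts, edgeR called Prss2 and Cpb1 lower at 3 µg/kg, and Prss2, Cpb1 and Gp2 lower at 30 µg/kg.

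The list was not uniform. Sycn, which encodes the granule protein syncollin, had 0, 7 and 5 counts in vehicle but 8, 13 and 14 at 10 µg/kg, with 0, 0 and 4 at 3 µg/kg and 1 in each library at 30 µg/kg. Pnliprp1, a lipase-related protein, had 7, 7 and 16 counts in vehicle and 15, 10 and 27 at 30 µg/kg, where its log2 change was 1.01 ± 0.59 (SE) with an edgeR adjusted p of 0.342. The genes with the highest levels in the list were far above the rest. Spink1, a trypsin inhibitor, was at 347 ± 51.3 CPM in vehicle and 439 ± 18.6 at 30 µg/kg, Rnase1, a secreted ribonuclease, at 6.63 ± 2.35 and 10.05 ± 1.47, and Cela1, an elastase, at 3.06 ± 0.818 and 2.50 ± 0.630. None of the 3 was called at any dose.

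The factors of the PTF1 complex were at or near 0. Ptf1a, the lineage factor of that complex, had 0 counts in all 12 libraries, and its partner Rbpjl had 6 in all. The acinar members themselves had only 5 to 58 counts per vehicle library, so these counts cannot show whether the factors were absent. Of 8 acinar regulators and secretory machinery genes, 2 passed the filter and 0 were called, with 0, 0 and 2 below an unadjusted p of 0.05 at 3, 10 and 30 µg/kg. Those 2 were Bhlha15, a secretory cell factor at 5.77 ± 1.05 CPM in vehicle and 8.57 ± 0.883 at 30 µg/kg, and Tmed6, a vesicle transport gene at 0.403 ± 0.132 and 1.26 ± 0.881. The 7 islet genes summed to 23 counts in vehicle and to 19, 11 and 5 at 3, 10 and 30 µg/kg. Iapp held 47 of these counts, Ins1 held 2 and Ins2 held 0.

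Markers of other organs were read beside the acinar genes, and their part in the acinar pattern was not tested. The 8 stomach genes summed to 32 counts in vehicle and to 9, 9 and 6 at 3, 10 and 30 µg/kg, with 4 of the 8 at 0 in vehicle. Among them Atp4a, the parietal cell proton pump, had 5 to 12 counts per vehicle library and 0 to 6 per dosed library. Of 7 liver genes only Cps1, an enzyme that the intestine also makes, had more than 8 counts. The 6 adipose genes summed to 48.9 to 73.3 CPM in vehicle and 38.6 to 68.0 CPM in the dosed libraries, most of it Cidec, and 2 passed the filter with 0 called and 0 at an unadjusted p under 0.05. The fat cell genes Plin1 and Adipoq, singled out after their values were seen, were less even. Plin1, a lipid droplet coat protein, had 8 to 35 counts in vehicle, 0 to 5 at 3 µg/kg, 2 to 7 at 10 µg/kg and 1 to 4 at 30 µg/kg, and Adipoq, the hormone adiponectin, had 5 to 21, 0 to 3, 3 to 11 and 0 to 12.

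The 6 smooth muscle genes, which mark the wall beneath the mucosa, summed to 50.2 to 179 CPM in vehicle and 13.65 to 77.1 at 3 µg/kg. They summed to 19.8 to 31.2 CPM at 10 µg/kg and 30.9 to 113 at 30 µg/kg. EdgeR called 0 of the 6 at any dose, although all 6 had an unadjusted p under 0.05 at 10 µg/kg, where their median log2 change was -1.99 against -0.01 over all genes. There were 0 of 6 at 3 and at 30 µg/kg. The mean smooth muscle sum was 25.2 ± 5.73 CPM at 10 µg/kg and 49.5 ± 32.5 at 3 µg/kg, where the acinar mean was lowest, and the muscle values of these groups overlapped. The muscle genes with the highest levels were Myh11, Des and Acta2, a myosin, an intermediate filament and an actin of muscle, at 51.5 ± 35.9, 16.3 ± 9.66 and 15.2 ± 11.5 CPM in vehicle.

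The 3 genes that the ileum makes itself went the other way, with the highest levels at 30 µg/kg. Pnliprp2, Clps and Klk1 together were at 44.4 ± 6.33 CPM in vehicle, and at 42.0 ± 1.17, 61.0 ± 13.2 and 119 ± 15.4 CPM at 3, 10 and 30 µg/kg. In all 3 genes, the 30 µg/kg libraries lay above every vehicle library, but the share of all genes with that pattern was not computed. At 30 µg/kg, 3.08% of all tested genes were called as higher and 0.891% as lower, which is a different measure. These shares are given as background only, since the 3 genes were chosen with this contrast in view.

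Pnliprp2 encodes a lipase-related protein that acts on galactolipids and phospholipids (chromosome 19, 58759719 to 58777534, plus strand). It had 306, 593 and 518 counts in vehicle and 279, 325 and 305 at 3 µg/kg. It had 609, 298 and 383 at 10 µg/kg and 1306, 916 and 1137 at 30 µg/kg. In CPM the groups were at 23.9 ± 5.81, 19.3 ± 1.60, 29.6 ± 12.3 and 70.0 ± 10.0. The 3 and 10 µg/kg libraries overlapped vehicle, and the 30 µg/kg mean was 2.92-fold that of vehicle. Pnlip and Pnliprp2 lie near each other on chromosome 19 in the same orientation, and of the pair only Pnlip was highest in vehicle.

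Clps encodes colipase, the cofactor that anchors pancreatic lipase to a lipid droplet covered by bile salts (chromosome 17, 28558149 to 28560766, minus strand). Its counts were 122, 202 and 109 in vehicle, 44, 186 and 201 in the 3 µg/kg group, 153, 118 and 162 in the 10 µg/kg group, and 330, 332 and 442 in the 30 µg/kg group. The first library at 3 µg/kg was the lowest of the 12, at 3.32 CPM, while the other two at that dose were at 10.8 and 11.8 CPM. Group means were 7.31 ± 1.85, 8.65 ± 4.64, 9.82 ± 1.23 and 23.5 ± 6.34 CPM, and that at 30 µg/kg was 3.21-fold the vehicle mean. Without the first library at 3 µg/kg, the log2 ratio at that dose was 0.63 rather than 0.24. The vehicle mean was thus the lowest of the 4 for Clps and the highest for its enzyme partner Pnlip, with Pnlip at 0 counts in 4 libraries in which Clps had 44 to 330.

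Klk1 encodes tissue kallikrein, a serine protease of glands that releases kinins (chromosome 7, 44225360 to 44229618, plus strand). It had 253, 308 and 209 counts in vehicle, 217, 217 and 226 in the 3 µg/kg group, 295, 294 and 361 in the 10 µg/kg group, and 525, 290 and 421 in the 30 µg/kg group. The levels were 13.2 ± 1.89, 14.1 ± 1.99, 21.5 ± 0.478 and 25.2 ± 1.94 CPM. Klk1 alone of the 3 had its 10 µg/kg libraries above every vehicle library, with ratios of 1.64 and 1.91 at 10 and 30 µg/kg. At 10 µg/kg, 0.487% of all tested genes were called higher, again a different measure and background only. Of the Klk1 windows, 28.4% occur in the neighboring Klk1b genes. The 13 paralogs listed held 4, 6, 3 and 14 counts in the 4 groups, against 660 or more for Klk1. Reads not aligned uniquely were left out of all counts, so these low paralog counts cannot show whether Klk1 lost reads.

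The ileum's own secretory cells were then read from gene lists. Clps and Pnliprp2 transcripts have been listed among those of Paneth cells, and Klk1 among those of goblet cells, in surveys of single intestinal cells. All 16 Paneth genes in the files passed the filter. At 30 µg/kg 11 were called higher and 0 lower, against 3.08% and 0.891% of all tested genes. The median log2 change of the 16 Paneth genes there was 1.48, against -0.02 over all tested genes. EdgeR called 2 Paneth genes higher at 10 µg/kg, against 0.487% of all tested genes. At 3 µg/kg it called 0, against 0.228% of all tested genes in either direction. There 9 Paneth genes had an unadjusted p under 0.05 and DESeq2 called 1. Without the first library at 3 µg/kg, 8 were called higher at that dose.

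At 30 µg/kg, Ang4, an antimicrobial ribonuclease, rose by 2.33 ± 0.28 (SE) on the log2 scale (edgeR adjusted p 0.000362). The pentraxin gene Mptx2 rose by 2.06 ± 0.32 (adjusted p 0.00251) and the alpha-defensin Defa22 by 2.06 ± 0.30 (adjusted p 0.00133). Defa30 rose by 1.83 and Lyz1, the Paneth cell lysozyme, by 1.76, from 377 ± 82.9 to 1280 ± 234 CPM. Defa24, which with Lyz1 and Itln1, a lectin, had the highest Paneth levels, rose by 1.57, and Itln1 by 1.37. Mptx1 differed from the rest, with 1 to 5 counts per library in vehicle, 1 to 6 in the 3 µg/kg group, 41 to 56 in the 10 µg/kg group and 0 to 2 in the 30 µg/kg group. At 10 µg/kg it rose by 4.26 ± 0.53 (SE) on the log2 scale (edgeR adjusted p 0.00193). The other gene called at 10 µg/kg, Nupr1, a stress-response gene, rose by 0.87, and that call was lost when any 1 of the 6 libraries was left out.

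Goblet genes moved less. All 13 passed the filter, and their median log2 change at 30 µg/kg was 0.43. At that dose 5 were called higher and 0 lower, against 3.08% and 0.891% of all tested genes. The 5 were Tff3, a trefoil peptide (0.90), Zg16, a lectin-like mucus protein (0.84), Agr2, a mucin-folding factor (0.82), Atoh1, the secretory lineage factor (0.71), and Ccl6, a chemokine (0.65). The abundant mucus genes Fcgbp and Muc2 were not called, at log2 changes of 0.07 and 0.26. EdgeR called 0 goblet genes at 3 and at 10 µg/kg, with 3 and 5 at an unadjusted p under 0.05, while DESeq2 called 1 and 0.

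Enterocyte digestive enzymes, the brush border counterparts of the pancreatic ones, were mostly not called. Of 20 tested, 0 were called at 3 and 10 µg/kg. Those at an unadjusted p under 0.05 numbered 1, 4 and 5 at 3, 10 and 30 µg/kg. Their log2 changes leaned lower, with 5, 2 and 4 of the 20 positive and medians of -0.15, -0.23 and -0.28. The 1 gene called at 30 µg/kg was Akp3, an intestinal alkaline phosphatase, which fell by 3.70 ± 0.82 (SE) on the log2 scale (edgeR adjusted p 0.0193), from 22.9 ± 3.28 to 1.73 ± 0.405 CPM. Leaving out any of 4 of the 6 libraries took that call away. The mean of Akp3 was also lower at 3 and 10 µg/kg, at 3.31 ± 4.70 and 2.84 ± 2.55 CPM. Its log2 changes there, -2.75 and -2.98, were not called (edgeR adjusted p 0.229 and 0.109). The most abundant of them, the aminopeptidase Anpep, the maltase Mgam and the sucrase Sis, were at log2 changes of 0.03, -0.02 and -0.28. Tmprss15, the enteropeptidase that activates trypsinogen in the lumen, was at 5.79 ± 2.16 CPM in vehicle and 4.02 ± 0.497 at 30 µg/kg and was not called.

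**Figure D3:**
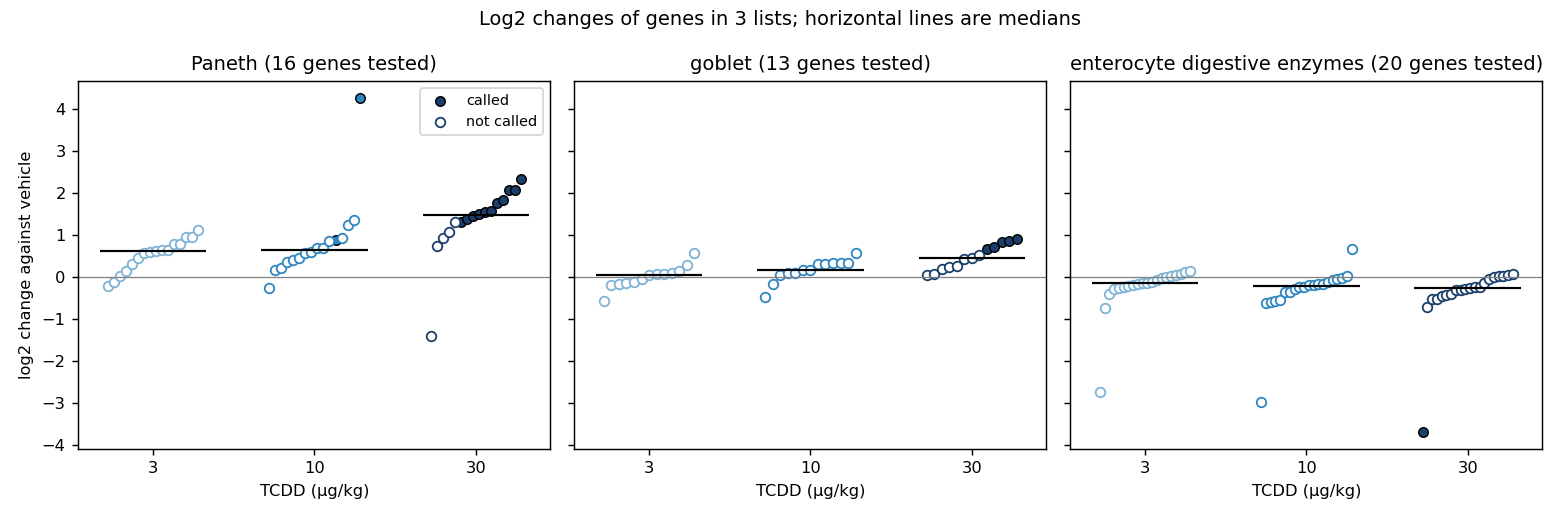
Points are genes, placed by log2 change against vehicle on the y axis at each TCDD dose on the x axis and sorted within a dose, with filled points called by edgeR and horizontal lines at the medians. Paneth genes have medians of 0.61, 0.64 and 1.48 at 3, 10 and 30 µg/kg, goblet genes end at 0.43, and enterocyte enzymes at -0.28 with Akp3 at -3.70.

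Set beside the Paneth list library by library, Clps varied far less than on its own. Per 1000 CPM of the Paneth sum, Clps was at 6.88 ± 0.255 CPM in vehicle, and at 4.93 ± 0.967, 5.87 ± 0.468 and 7.04 ± 1.12 CPM at 3, 10 and 30 µg/kg. The vehicle and 30 µg/kg groups overlapped on this scale. All libraries at 3 µg/kg (3.82 to 5.62) and 10 µg/kg (5.33 to 6.16) lay below those of vehicle (6.58 to 7.02). The ratio spanned 2.18-fold over the 12 libraries, while Clps itself spanned 8.88-fold. The first library at 3 µg/kg, lowest in Clps, also had the lowest Paneth sum, at 868 CPM against 1931 and 2207 in the other two.

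Pnliprp2 followed the Paneth sum less closely. Per 1000 CPM of that sum it was at 23.2 ± 7.18 CPM in vehicle, and at 14.05 ± 8.86, 17.5 ± 6.14 and 21.5 ± 4.095 CPM at 3, 10 and 30 µg/kg. These groups overlapped, but the ratio still spanned 3.86-fold, against 4.72-fold for Pnliprp2 itself. Klk1 per 1000 CPM of the goblet sum was at 0.888 ± 0.0562 CPM in vehicle, and at 1.08 ± 0.0829, 1.54 ± 0.0539 and 1.46 ± 0.169 CPM at 3, 10 and 30 µg/kg. The vehicle libraries, 0.852 to 0.952, lay below all libraries at 10 and 30 µg/kg on this scale too. Most of the goblet sum, 14820 CPM in vehicle, came from Fcgbp and Muc2, at 8589 and 3697 CPM, which were not called at any dose. The scale therefore mainly reflects these abundant genes, not the goblet genes that were called.

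**Figure D4:**
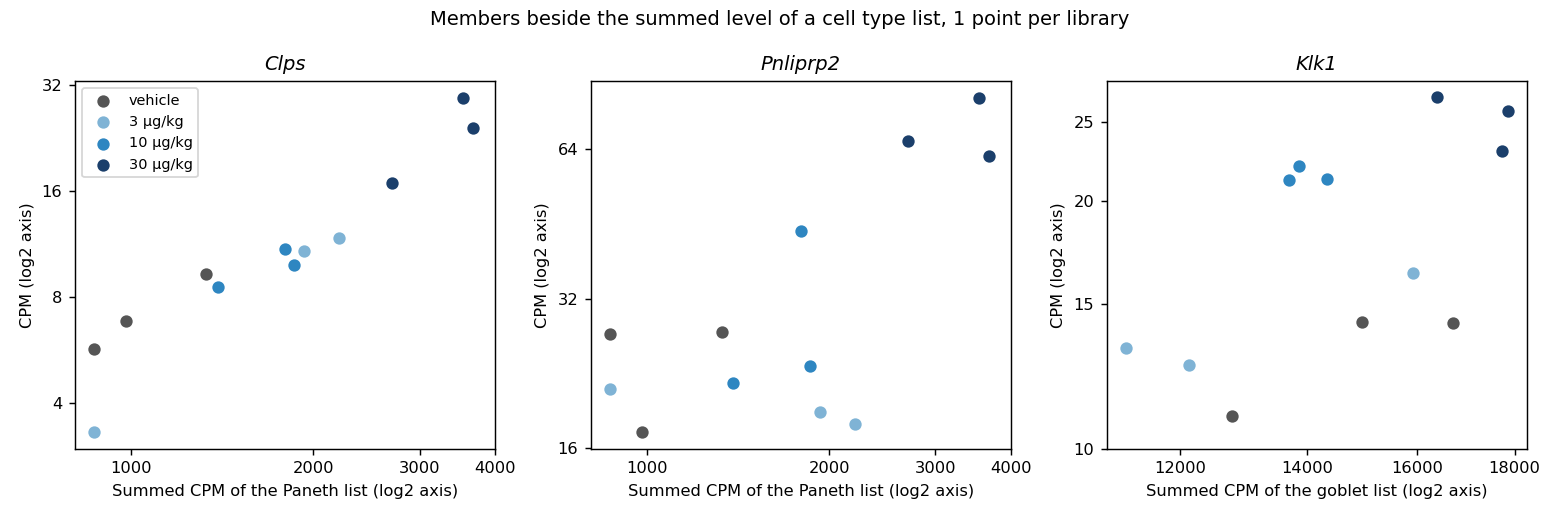
Each point is 1 of the 12 libraries, colored by dose, with the summed CPM of the Paneth or goblet list on the x axis and the CPM of Clps, Pnliprp2 or Klk1 on the y axis, both on log2 axes. Clps lies near 1 line through all doses, Pnliprp2 scatters more, and Klk1 at 10 µg/kg lies above vehicle libraries of equal goblet level.

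Several clock genes differed widely between the animals of a group, and Pnliprp2 is given beside them. Dbp, a clock output gene singled out after its values were seen, had 19, 2605 and 1645 counts in vehicle, where Pnliprp2 was at 17.2, 27.4 and 27.2 CPM. At 3 µg/kg, Dbp had 1205, 58 and 28 counts beside 21.0, 19.0 and 17.9 CPM, and at 10 µg/kg 894, 16 and 16 beside 43.8, 21.6 and 23.4 CPM. At 30 µg/kg it had 904, 326 and 50 beside 66.6, 81.3 and 62.2 CPM. The library with the most Dbp thus had the most Pnliprp2 in 3 of the 4 groups. The clock genes with the highest levels, Clock, Nr1d1 and Tef, were at 120.5 ± 7.01, 126 ± 63.7 and 109 ± 82.9 CPM in vehicle. EdgeR called 0 of the 10 clock genes at any dose, with 1, 0 and 0 at an unadjusted p under 0.05, and the part of the clock in the Pnliprp2 level was not tested.

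Genes with the most similar pattern were ranked by Pearson correlation of log2 CPM over the 12 libraries, which share group and depth, as a description. Clps was nearest to the alpha-defensins Defa29 (0.98) and Defa26 (0.97) and to Eef1d, a translation factor (0.97). Pnliprp2 was nearest to Mmp9, a matrix protease (0.95), Rab27a, a secretory vesicle GTPase (0.95), and the ribosomal protein gene Rplp0 (0.94). Klk1 was nearest to Tmem86b (0.96), Cyp1a1, the best known AhR target gene (0.96), and the actin gene Acta1 (0.96). Cyp1a1 was at 23.0, 77.4, 1074 and 2979 CPM in vehicle and at 3, 10 and 30 µg/kg. Among themselves, Pnliprp2 and Clps correlated at 0.76, Pnliprp2 and Klk1 at 0.73, and Clps and Klk1 at 0.61.

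The summed acinar genes had no gene above 0.9 among 15740 compared, while Pnliprp2 had 49, Clps 39 and Klk1 24. Only genes that passed the filter on low counts were compared. Prss2, Cpb1, 2210010C04Rik and Try5, which had a similar pattern by group, did not pass it and could not appear. Nearest to the acinar sum was Ighv1-19, an immunoglobulin heavy chain segment (0.88), at 9.43, 1.34, 4.38 and 1.87 CPM in vehicle and at 3, 10 and 30 µg/kg. It was followed by Bbs1, a cilium gene (0.84), Rn7sk, a small nuclear RNA (0.84), Ambp (0.83) and BC037034 (0.83).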

How the data were processed

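RNA was sequenced from 12 libraries of ileal epithelial scrapings, 3 per group. The values deposited by the authors are raw read counts for each Ensembl gene, 1 file per library. Per the labels, total RNA was extracted with TRIzol, and libraries were made with a NuGen Ovation kit with an added DNase step. The submitters' processing notes name FastQC 0.11.3, Trimmomatic 0.33, TopHat2 2.1.0, SAMtools 1.2.0, HTSeq 0.6.1, DESeq and build GRCm38. The annotation release and strand setting are not given in the sources used here. Reads in genes made up 37.1% of those reported, reads without a feature 28.3%, reads not aligned uniquely 34.2% and ambiguous reads 0.517%. The latter 3 classes did not enter library sizes or tests, so families of near-identical genes lost reads.

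The 10 genes and all companion lists were chosen with earlier results of these data known. Of 46078 genes, 45229 matched GENCODE M21, and the unmatched held 0.749% of counts. Counts were tested with edgeR 4.0.16 in R 4.3.3. Genes passing filterByExpr (15823) were scaled with TMM, and 1 quasi-likelihood model of 4 groups was fitted to all libraries, with each dose compared with vehicle. A gene was called at a Benjamini-Hochberg adjusted p under 0.05 over all genes tested and at least 1.5-fold change. The quasi-likelihood step was tested on simulated data. The text names all 10 genes, the called genes of each companion list (at most 6, by size of change) and the 3 with the highest mean CPM, and the nearest 5 genes for the acinar sum and 3 for each ileal gene. Lists almost without counts are given as sums. Genes outside that rule are named as chosen after their values were seen. For the 10 genes, counts, CPM and ratios of group mean CPM were computed without a test. Of them, 7 passed the filter (Pnlip, Ctrb1, Cela2a, Ctrl, Pnliprp2, Clps and Klk1), some only through the vehicle group. Where a dosed group held 1 to 3 counts, the ratio instead used counts and scaled library sizes pooled over the group. Such ratios have exact 95% counting intervals. Ratios with 0 counts were pooled likewise and are bounds against 3 counts over the group. Log2 CPM used a prior count of 2. Windows were 50 bases long. The alternatives tried were RLE scaling, plain library totals, no filter, DESeq2 1.42.0, only the groups compared, the library index as a covariate, group medians, and leaving out each library. Replicate numbers follow deposit order, the design text calls the replicates biological, and no 2 libraries of a group were duplicates by a chi-square comparison of their counts (10.6 to 47.97 per degree of freedom).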

Additional observations from a re-analysis of the deposited data

How the results depend on the processing

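Depth limits the acinar genes: the vehicle libraries, at 17890737 to 22180274 gene counts, were as a group deeper than the dosed ones, at 11695887 to 19882816, and no dosed value of the 7 acinar genes rests on more than 14 counts. The labels give no replicate numbers that pair animals. A library index recurred once in each group and was fitted as a replicate block. Deviations from group means had Pearson correlations across genes of -0.43 to 0.20 over 18 same-index pairs, 4 of them above 0.1 (median -0.07). Over 36 pairs with different indexes they were -0.30 to 0.36, with 12 above 0.1 (median 0.04). With 3 libraries per group, these values cannot decide whether same-index libraries share more than an index, and that was not tested. Where counts changed, the cause was not tested. The count of genes called at 3 µg/kg, 36, became 71 without a filter, 84 with DESeq2, 6 with only the groups compared and 18 with the index block, and ran from 19 to 162 when 1 library was left out. The 97 at 10 µg/kg became 215, 262 and 59 without a filter, with DESeq2 and with the index, and ran from 45 to 59. At 30 µg/kg, 628 ran from 433 to 655. For the other acinar genes, 0 became 2 without a filter at 3 µg/kg (0 to 1 on leaving out a library), and at 30 µg/kg 3 without a filter and 1 with only the groups compared (0 to 2), that 1 being Prss2. For Paneth genes at 3 µg/kg, 0 became 2 and 1 without a filter and with DESeq2 (0 to 8, with 8 without the first library at 3 µg/kg). At 10 µg/kg, 2 became 4 without a filter, with DESeq2 and with only the groups compared, and 1 with the index or on leaving out any library. For goblet genes at 3 µg/kg, 0 became 1, Zg16 as lower, without a filter and with DESeq2 (0 to 1). The acinar sum, at log2 ratios of -3.59, -1.45 and -2.21, ran from -3.65 to -3.51, -1.52 to -1.39 and -2.69 to -1.93 on leaving out a library. With Ctrl left out, chosen after seeing the data, it was -1.78 at 10 µg/kg and -2.97 at 30 µg/kg. No called gene named in the text and no ratio of the acinar sum changed sign under the alternatives run, but log2 ratios near 0 did. With group medians, Ctrl went from 0.09 to -0.17 at 10 µg/kg and from 0.05 to -0.29 at 30 µg/kg, Pnliprp2 from 0.31 to -0.21 at 10 µg/kg and Klk1 from 0.10 to -0.10 at 3 µg/kg. On leaving out 1 library, these ratios reached -0.21, -0.25, -0.089 and -0.022, and Clps at 3 µg/kg went from 0.24 to -0.046.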
